A study of Mus musculus with 10 samples.

Results

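Mouse embryonic stem (ES) cells sorted as negative for both Esrrb and Tbx3 were compared with cells sorted as negative for a Zscan4c reporter, which stand in here for near-bulk ES cells. All fractions came from E14Tg2a.4 cells, a mouse ES cell line. The Esrrb-negative/Tbx3-negative fraction (double-negative) came from a line in which different fluorescent proteins were knocked into the Esrrb and Tbx3 genes, the Zscan4c-negative fraction from a line with a piggyBac transgene in which a fragment of the Zscan4c promoter drives the reporter. Given beside them for reference are Esrrb-positive/Tbx3-negative (single-positive) cells of the knock-in line, its Esrrb-positive/Tbx3-positive (double-positive) cells, and the Zscan4c-positive cells of the transgene line. Reporter line and sorted state differ together between the compared fractions, so that a difference due to the line and one due to the state cannot be told apart. Whether either line was 1 clone, and in which medium it grew, is not stated in the labels used here.

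Each of the 5 fractions had 2 libraries, collected on different days, and the deposited table merges them into 1 value per gene and fraction, in FPKM, the fragments of a gene scaled by transcript length and by the mapped fragments of the library. No standard deviation or p-value can therefore be given for any value below, and no difference can be set against the spread between replicates. Rows with at least 1 FPKM in either compared fraction were kept, without the 5 rows of chromosome Y that reached this level, which left 13053 of the 32361 rows of the table. A difference is the double-negative minus the Zscan4c-negative value of log2(FPKM + 1), and a row is called higher or lower where it is at least 1, that is 2-fold on this scale. This scale understates the differences of genes with low values. Where 5 values stand in a row without names, they are those of the double-negative, Zscan4c-negative, single-positive, double-positive and Zscan4c-positive fractions, in this order.

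ES cells pass through a naive state, kept by LIF-STAT3 signalling and by a group of transcription factors that includes Esrrb, Nanog, Klf4, Tfcp2l1 and Tbx3, and a formative state on the way to the epiblast, in which these factors are lost and genes such as Pou3f1 (Oct6), Otx2, Fgf5 and Dnmt3b are gained. Pou5f1 and Sox2 are expressed in both states. ESRRB is an orphan nuclear receptor that binds many naive genes, TBX3 is a T-box factor, and the Zscan4 genes mark a rare 2-cell-like state.

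In double-negative cells, 240 rows (1.84%) were at least 2-fold lower than in Zscan4c-negative cells and 1434 rows (11.0%) at least 2-fold higher. Many of the higher rows shared 1 profile: their levels in double-positive, Zscan4c-positive and Zscan4c-negative cells were all at most 0.25 of the double-negative level. These 858 rows, of which 818 were called higher, are set apart below. Among the other 12195 rows, 616 (5.05%) were higher. The median difference over all compared rows was 0.03, and outside the set-apart rows it was -0.01. The shares 11.0%, 1.84% and 5.05% are the backgrounds against which the counts for gene lists below are read. In 225 of the 240 lower rows the double-negative level was the lowest of the 5 fractions, ties included, since some small RNA rows were at 0 in several fractions. In 579 of the 616 higher rows the double-negative level was the highest.

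**Figure D1:**
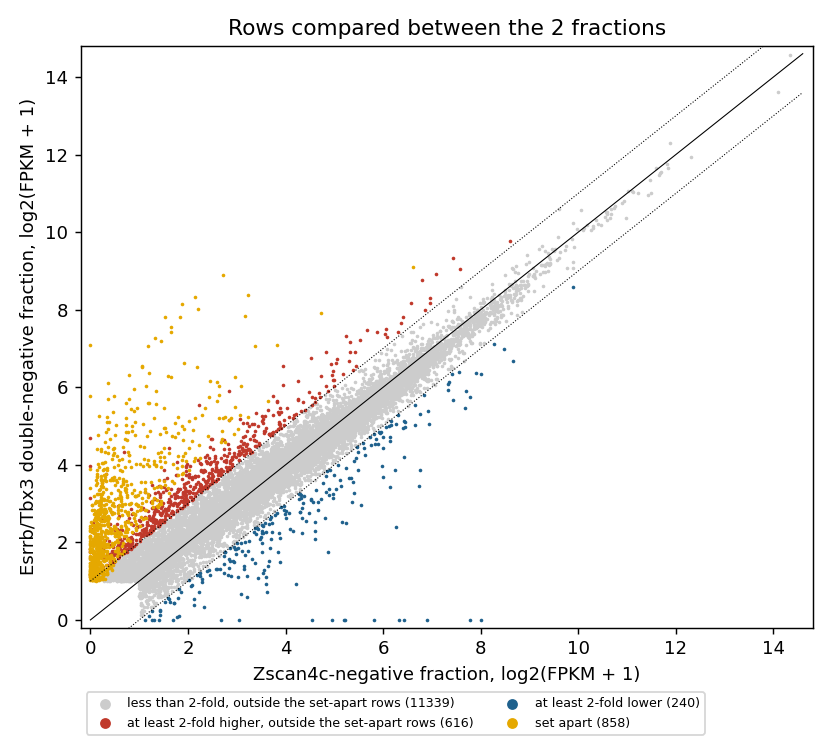
Each point is a compared row, with log2(FPKM + 1) in the Zscan4c-negative fraction on the horizontal and in the double-negative fraction on the vertical axis; the solid line marks equal values and the dotted lines 2-fold. The 858 set-apart rows reach farthest into the upper left, the 616 other higher rows lie mostly nearer to the upper dotted line, and the 240 lower rows lie below the band.

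The sorted genes themselves followed their labels. Esrrb (chromosome 12, 86361117 to 86521628 in mm10) was at 43.3 FPKM in double-negative, 203 in Zscan4c-negative, 177 in single-positive, 243 in double-positive and 233 in Zscan4c-positive cells. The Zscan4c-negative level was thus close to those of the Esrrb-positive fractions, and the double-negative level was the lowest (difference -2.20). In such pooled cells, fewer cells that express a gene and less of its RNA per cell cannot be told apart. Tbx3 was at 0.638 FPKM in double-negative, 11.4 in Zscan4c-negative, 1.75 in single-positive, 12.6 in double-positive and 35.3 in Zscan4c-positive cells, a difference of -2.92. Zscan4c was at 0.255 FPKM in Zscan4c-negative and 0.339 in double-negative cells and at 120 in Zscan4c-positive cells, so the compared fractions were both low for it.

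Of the other markers of the double-negative state, Pou3f1 (chromosome 4, 124657646 to 124660655), a POU factor of the early epiblast, was at 52.0 FPKM in double-negative, 23.5 in Zscan4c-negative, 5.30 in single-positive, 3.66 in double-positive and 12.8 in Zscan4c-positive cells. Pim2 (chromosome X, 7878306 to 7883432), a serine/threonine kinase, was at 180 FPKM in double-negative, 66.0 in Zscan4c-negative, 20.0 in single-positive, 18.9 in double-positive and 27.7 in Zscan4c-positive cells. Both were highest in double-negative cells (differences 1.12 and 1.43), and in both the Zscan4c-negative level lay between those of the double-negative and the double-positive cells. For Esrrb, in contrast, the Zscan4c-negative fraction lay near the positive end.

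Most of the listed naive factors, which include genes other than transcription factors such as Tcl1, were low together. Of 16 listed naive factors, all of them compared, 13 were at least 2-fold lower and none was higher, against 1.84% of all rows lower, and the median difference was -1.74. Esrrb and Tbx3, the sorted genes, are among the 13. Tcl1, a cofactor of AKT, was at 13.6 FPKM in double-negative, 74.7 in Zscan4c-negative, 80.8 in single-positive, 141 in double-positive and 113 in Zscan4c-positive cells. Tfcp2l1, a Grainyhead-family factor, was at 11.8, 63.1, 63.0, 85.7 and 64.7 FPKM. Klf4, a Krüppel-like factor downstream of STAT3, was at 14.5, 62.3, 65.5, 87.0 and 93.1 FPKM. In all 3 genes the double-negative fraction stood alone at the bottom, and the single-positive and Zscan4c-negative fractions lay close to each other. The same held for Zfp42 (Rex1), a zinc finger gene long used as a naive marker, with 101 FPKM in double-negative, 405 in Zscan4c-negative and 428 in single-positive cells.

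The homeobox factor Nanog was at 79.8 FPKM in double-negative, 257 in Zscan4c-negative, 278 in single-positive, 388 in double-positive and 522 in Zscan4c-positive cells, a difference of -1.67. Nr0b1 (Dax1), an orphan nuclear receptor, differed by -1.90, Prdm14 by -1.76, Dppa3 (Stella) by -1.73 and Nr5a2 by -1.72. Spic (-1.28) and Fbxo15 (-1.23) were the least different of the 13. The 3 naive genes that did not pass 2-fold were Klf2, at 138 against 252 FPKM (-0.86), Klf5, at 54.2 against 97.5 FPKM (-0.83), and Gbx2, at 45.5 against 52.3 FPKM (-0.20). Gbx2 had another order of fractions than the rest of the list: 45.5 FPKM in double-negative, 52.3 in Zscan4c-negative, 26.2 in single-positive, 23.3 in double-positive and 18.0 in Zscan4c-positive cells. It was high in both compared fractions.

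Factors used by naive and primed cells alike differed less. Of 12 listed, 1 was lower and none higher, with a median difference of -0.48. Pou5f1 (Oct4) was at 1987 FPKM in double-negative against 2762 in Zscan4c-negative cells, and Sox2 at 209 and 363 FPKM. The exception past 2-fold was Zfp296, a zinc finger gene of ES and germ cells, at 17.1 against 42.5 FPKM (-1.26).

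Formative and primed epiblast genes were on the whole higher in double-negative cells, by smaller amounts. Of 16 listed and compared, 4 passed 2-fold upward and none downward, against 5.05% of rows outside the set-apart profile, to which none of the 16 belonged, and the median difference was 0.66. Car4, a membrane-bound carbonic anhydrase, was at 17.1 FPKM in double-negative, 5.36 in Zscan4c-negative, 2.04 in single-positive, 1.23 in double-positive and 4.13 in Zscan4c-positive cells (difference 1.51). Fgf5, the ligand that marks the postimplantation epiblast, was at 3.73, 1.01, 0.206, 0.423 and 1.26 FPKM (1.23). Pim2 and Pou3f1, given above, were the others. In these 4 genes the single-positive level was below that of the Zscan4c-positive cells, and the double-negative level stood above all others.

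Other formative genes differed by less than 2-fold, and in some of them the Zscan4c-negative level was as high as the double-negative one. Otx2, a homeobox factor that drives exit from the naive state, was at 36.3 FPKM in double-negative, 20.5 in Zscan4c-negative, 20.1 in single-positive, 17.3 in double-positive and 7.27 in Zscan4c-positive cells (0.79). Dnmt3b, a de novo DNA methyltransferase, was at 158, 103, 66.9, 71.9 and 60.0 FPKM (0.61). Its paralogue Dnmt3a was at 42.1, 36.4, 19.8, 15.9 and 16.0 FPKM (0.21), and Tcf15, a basic helix-loop-helix factor of cells primed to differentiate, at 82.0, 95.7, 38.0, 39.2 and 46.1 FPKM (-0.22). In Dnmt3a and Tcf15 the 2 compared fractions were both high and the other 3 low. Wnt8a had its double-negative level of 6.49 FPKM beside 4.03 in Zscan4c-negative cells, while single-positive and double-positive cells had 0.336 and 0.417 FPKM. The most negative difference of the list was -0.59, in Zic5. Its levels were 5.41, 8.67, 8.16, 11.2 and 9.31 FPKM, lowest in double-negative cells.

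The place of the Zscan4c-negative fraction differed between the naive and the formative list. On the log2(FPKM + 1) scale its level lay between those of the double-negative and double-positive cells for 15 of the 16 naive factors, and it was nearer to the double-positive level for 15. For the formative genes it lay between them for 13 of 16 and was nearer to the double-negative level for 9. Over all compared rows it lay between them in 51.5% and nearer to the double-negative level in 30.5%. These counts use the double-negative column that also defines the differences, and the difference between the lists was not tested.

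**Figure D2:**
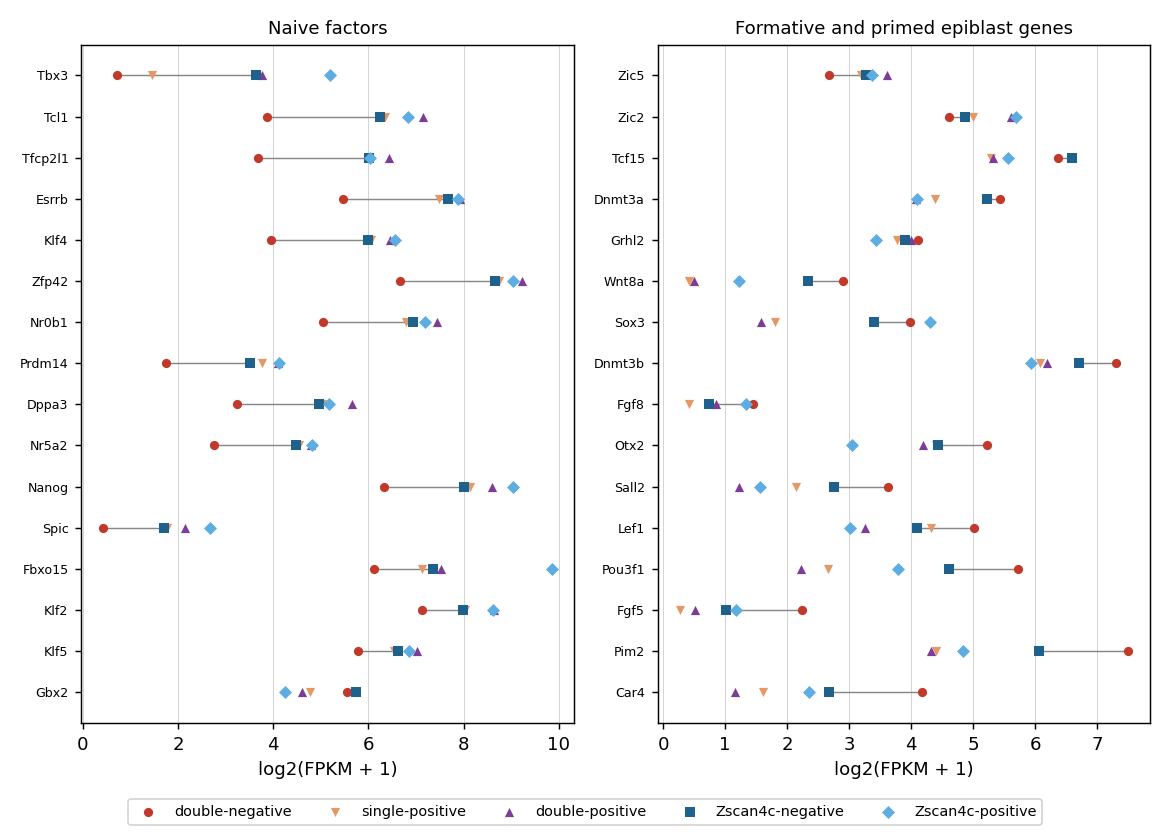
For the 16 naive factors and the 16 formative or primed epiblast genes, points give log2(FPKM + 1) in each of the 5 fractions, with a line from the Zscan4c-negative to the double-negative level. In naive genes other than Gbx2 the double-negative point lies left of all others, while in Pou3f1, Pim2 and Car4 it lies right of all others with the Zscan4c-negative point next.

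The 12 coding genes with the largest lower differences, among those at 5 FPKM or more in Zscan4c-negative cells, included 2 that did not follow the Esrrb sort. Mest, an imprinted gene expressed from the paternal copy, was at 4.22 FPKM in double-negative cells and at 3.0 and 3.32 in the single-positive and double-positive cells of the same line, but at 75.3 in Zscan4c-negative and 70.1 in Zscan4c-positive cells (difference -3.87). These levels separated the lines and not the sorted states. Fgfr4, an FGF receptor, was at 0.891, 17.5, 0.837, 20.6 and 12.1 FPKM (-3.29), low in both Tbx3-negative fractions.

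The rest of the 12 other than Tbx3 were low in the double-negative fraction and higher in the other 4. Gm7325, which encodes the fusion protein myomixer, was at 10 FPKM in double-negative, 106 in Zscan4c-negative, 75.0 in single-positive, 80.1 in double-positive and 50.8 in Zscan4c-positive cells (-3.28). Khdc3, a component of the subcortical maternal complex of the oocyte, was at 2.38 against 28.2 FPKM (-3.11), and the myosin light chain gene Mylpf at 13.5 against 108 FPKM (-2.90). Sox21 (0.916 against 11.2 FPKM), Inhbb, which encodes an activin subunit (0.511 against 8.21), Lrrc34 (4.64 against 36.9) and the AP-2 factor gene Tfap2c (6.84 against 46.0) also belonged to the group. In the 7 genes named here the single-positive level lay 7.14 to 9.31 times above the double-negative level within the same reporter line. Across all 225 lower rows with a value in double-negative cells, the median of this ratio was 2.77.

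The set-apart rows were led by genes of connective tissue and of T cells. Markers of these cell types are not part of the known ES cell programme. Col1a1, a chain of type I collagen, was at 477 FPKM in double-negative, 5.61 in Zscan4c-negative, 348 in single-positive, 6.32 in double-positive and 7 in Zscan4c-positive cells. Bgn, the matrix proteoglycan biglycan, was at 283, 2.68, 194, 3.86 and 3.22 FPKM. Gzma, a granule protease of cytotoxic lymphocytes, was at 223, 1.89, 151, 2.78 and 2.61 FPKM. Cd3g, a chain of the T-cell receptor complex, was at 153, 1.5, 110, 2.35 and 2.28 FPKM. In each of the 4 genes the double-negative and single-positive fractions were high and the other 3 low. The other 8 of the 12 set-apart rows with the highest double-negative levels were Col1a2, S100a4, B2m, Ftl1, Col6a1, Col6a2, the imprinted long noncoding RNA H19 and Col3a1, at 132 to 318 FPKM in double-negative cells. Ftl1, a ferritin chain, has many processed pseudogenes, and its level is uncertain.

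Over the whole lists, 11 of the 12 compared fibroblast markers were higher, all 11 among the set-apart rows, with a median difference of 5.79 over the 12. The exception, the matrix gene Fbln1, was at 30.1 against 37.7 FPKM. Over all 14 fibroblast symbols found, also those below 1 FPKM, the summed level was 2007, 63.5, 1437, 73.2 and 108 FPKM. Fbln1 alone gave 37.7 FPKM of the Zscan4c-negative, 40.4 of the double-positive and 71 of the Zscan4c-positive sum. The matrix genes Dcn and Lum of the same list were at 0.217 and 0.0145 FPKM in double-negative cells. Of 11 compared T-lineage markers, 9 were higher, 7 of them set apart, with a median of 3.07. The summed level of all 13 T-lineage symbols found was 601, 27.6, 438, 41.5 and 30.3 FPKM. Cd4 and Cd5 did not reach 1 FPKM and were not compared, at 0.835 against 0.135 FPKM and 0.803 against 0.114 FPKM, also higher in double-negative cells. Ptprc (CD45), the pan-leukocyte marker, was at 23.9 FPKM in double-negative cells, at 16.3 in single-positive cells and at most at 0.978 in the other 3 fractions.

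Fewer markers of other cell types reached 1 FPKM. Of the myeloid list, 3 of the 10 symbols found reached 1 FPKM: Ptprc, Fcer1g at 1.99 against 0.0508 FPKM, and Cd68 at 10.9 against 12.3 FPKM. Csf1r at 0.0729 against 0.00993 FPKM and Adgre1 at 0.196 against 0.00938 FPKM were not compared, and were also higher in double-negative cells. Of 8 B-lineage markers, Ebf1 (6.73 against 1.77 FPKM) and Cd79b (2.28 against 0.555) were compared, both higher, although with a pseudocount of 5 FPKM neither passed 2-fold (0.79 and 0.39), and Ms4a1 and Pax5 were below 1 FPKM in both fractions. None of the 5 compared endothelial markers passed 2-fold, and Cdh5 was at 0.0286 and Emcn at 0 FPKM in double-negative cells. Of the 2 compared erythroid markers, Hbb-b2 was higher at 2.40 against 0.4 FPKM, and Epor was within 2-fold at 1.30 against 0.918 FPKM. Below 1 FPKM and not compared, Klf1 was at 0.235 against 0.411 FPKM and Hbb-bs at 0.896 against 0.308 FPKM. Of the muscle list Acta2 and the skeletal muscle factor Myod1 were set apart. Acta2 was at 46.9 against 1.30 FPKM, and Myod1 at 1.06 against 0.0453 FPKM (0.98, short of 2-fold on the scale used). Myog and Myh11 were not compared. Myog was lower in double-negative cells, at 0.0232 against 0.0982 FPKM, and Myh11 was at 0.0702 against 0.0233 FPKM. Hprt, a purine salvage gene that is disrupted in the E14Tg2a line and was picked here after its values had been seen, was among the set-apart rows at 28.0 FPKM in double-negative, 0.717 in Zscan4c-negative, 19.3 in single-positive, 0.954 in double-positive and 0.349 in Zscan4c-positive cells.

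The single-positive level of the set-apart rows kept mostly to a narrow range of shares of the double-negative level. The median share was 0.695, the middle 95% ran from 0.377 to 0.874, and 73.7% of the rows lay between 0.6 and 0.8. The single-positive column was not used to choose these rows, but the double-negative level by which it is divided was. The same level also chose the higher rows, and choosing rows by a high double-negative level lowers this share. The shares below are therefore descriptive, and the difference between the groups of rows was not tested. Among the 616 higher rows outside the profile the median was 0.718, with 50.2% between 0.6 and 0.8, and among the 11339 other rows with less than a 2-fold difference it was 1.01, with 10.7%. In FPKM, the set-apart rows made up 2.41% of the column total in double-negative, 1.57% in single-positive, 0.114% in double-positive, 0.136% in Zscan4c-negative and 0.121% in Zscan4c-positive cells. From which cells their RNA came was not tested. At the edge of the profile, Mxd4, Syt13 and Capn2 lay just inside, with their highest reference level at 0.247 to 0.25 of the double-negative level, and Ano10, Creb3l1 and 4933412E12Rik just outside, at 0.25 to 0.253.

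**Figure D3:**
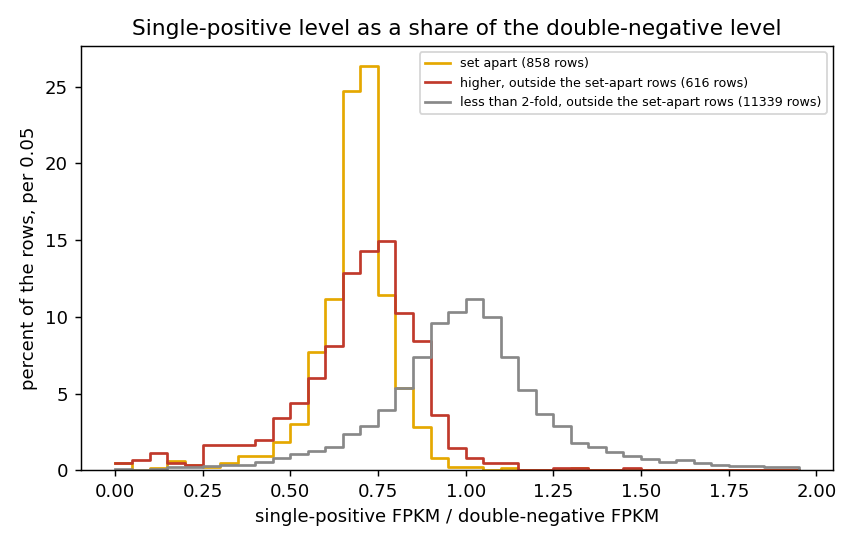
Lines give the percent of rows per 0.05 step of the single-positive level divided by the double-negative level, for the set-apart rows, the other higher rows and the rows with less than a 2-fold difference. The set-apart rows form a narrow peak around 0.695, the 616 other higher rows a wider one around 0.718 with a tail toward 0, and the remaining rows centre on 1.01.

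Outside the set-apart rows, 7 of the 12 genes with the largest higher differences also had a single-positive share between 0.6 and 0.8. Ddr2, a receptor kinase for fibrillar collagen, was at 19.3 FPKM in double-negative, 0.608 in Zscan4c-negative, 12.7 in single-positive, 1.36 in double-positive and 5.25 in Zscan4c-positive cells (difference 3.66). Plac8, a small cysteine-rich protein gene, was at 91.9, 14.3, 67.6, 24.4 and 14.3 FPKM (2.60), and Anxa2, a membrane-binding annexin, at 107, 21.8, 74.0, 33.9 and 50.9 FPKM (2.25). Snai1, a repressor known from epithelial-mesenchymal transition, was at 15.7, 2.44, 11.1, 3.29 and 13.3 FPKM (2.28). Wls, which carries WNT ligands to the cell surface, was at 24.5 against 4.56 FPKM and Ephx1, an epoxide hydrolase, at 34.7 against 6.17 FPKM. Of these genes, Ddr2, Snai1 and Wls missed the profile only through their Zscan4c-positive level, which lay above 0.25 of the double-negative one. Serpinb1a, Capn6, Fmnl1 and Smim6 also belonged to the 12 largest.

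The other 2 of the 12 were high in all fractions of the knock-in line. Rnf19a, an E3 ubiquitin ligase, was at 58.4, 6.20, 33.2, 34.9 and 6.64 FPKM (3.04). Copz2, a coatomer subunit, was at 20.6, 2.07, 16.6, 7.80 and 3.49 FPKM (2.81). By a rule set after values had been seen, all 3 fractions of the knock-in line were at least 2 times both fractions of the transgene line in 67 rows, 40 of them set apart. Nupr1, a stress-induced chromatin factor, belonged to them at 37.5, 10.4, 40.2, 50.4 and 18.3 FPKM, as did the mitochondrial PEP carboxykinase gene Pck2 at 35.3, 10.5, 24.7, 24.1 and 9.83 FPKM and Glipr2 at 36.4, 15.9, 38.6, 38.8 and 14.5 FPKM. In the opposite direction there were 10 rows, 4 of them coding or long noncoding, of which Mest was the only one of the 4 with 5 FPKM or more in Zscan4c-negative cells.

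A smaller group of higher genes had a lower single-positive share. By an alternative added after the values were seen, 82 of the 616 higher rows had a single-positive level of at most 0.5 of the double-negative level. Beside the formative genes Pim2, Pou3f1, Car4 and Fgf5, the group held Enpp2 (autotaxin), which makes lysophosphatidic acid, at 12.8 FPKM in double-negative, 4.40 in Zscan4c-negative, 1.53 in single-positive, 0.874 in double-positive and 0.777 in Zscan4c-positive cells. Vrtn, a gene known for its part in setting vertebra number, was at 11.1, 4.31, 1.51, 1.14 and 1.61 FPKM, and the kinesin gene Kif1a at 9.79, 3.42, 1.48, 1.26 and 2.60 FPKM. All 3 were highest in double-negative cells with the Zscan4c-negative fraction next. The group also held Rbck1, a subunit of the linear ubiquitin ligase complex, at 158 against 36.6 FPKM, and several genes of antigen processing: Psmb10, a subunit of the immunoproteasome, at 76.7, 25.4, 21.8, 10.9 and 9.90 FPKM, Tapbp (tapasin) at 51.0 against 18.0 FPKM, and the proteasome activator subunit Psme2 at 18.3 against 7.43 FPKM. Parp12 and Parp9, which interferon induces, were at 34.0 against 10.4 and 21.4 against 7.36 FPKM. These genes were named after their values had been seen.

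Genes of the interferon response and of antigen presentation were higher almost throughout the list. Interferon acts through IRF and partner factors on a DNA element, the interferon-stimulated response element (ISRE), whose core is GAAA, any 2 bases and GAAA again. Of 19 compared genes, 18 were higher, 12 of them set apart, and 6 of the 7 outside the profile were higher, against 11.0% of all rows and 5.05% of rows outside the profile. The median difference was 1.89 over the 19 and 1.55 over the 7. The promoters of 4 members, of which Gbp2 and Gbp5 had low and Isg15 and B2m higher single-positive shares, are printed here with their ISRE cores in capitals, as the 250 bases before the RefSeq start on GRCm38.p6, 5′ to 3′ on the strand of the gene.
Gbp2 (chr3:142620413-142620662, plus strand): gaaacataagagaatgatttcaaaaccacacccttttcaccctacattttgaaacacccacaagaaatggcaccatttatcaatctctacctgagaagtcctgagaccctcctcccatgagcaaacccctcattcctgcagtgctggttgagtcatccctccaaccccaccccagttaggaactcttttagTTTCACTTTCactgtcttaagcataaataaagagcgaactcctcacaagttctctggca
Gbp5 (chr3:142496684-142496933, plus strand): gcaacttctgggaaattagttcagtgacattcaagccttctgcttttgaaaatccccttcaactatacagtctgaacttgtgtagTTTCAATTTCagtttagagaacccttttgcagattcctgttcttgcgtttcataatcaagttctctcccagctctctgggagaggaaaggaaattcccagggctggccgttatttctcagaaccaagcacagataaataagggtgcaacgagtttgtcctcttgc
Isg15 (chr4:156200819-156201068, minus strand): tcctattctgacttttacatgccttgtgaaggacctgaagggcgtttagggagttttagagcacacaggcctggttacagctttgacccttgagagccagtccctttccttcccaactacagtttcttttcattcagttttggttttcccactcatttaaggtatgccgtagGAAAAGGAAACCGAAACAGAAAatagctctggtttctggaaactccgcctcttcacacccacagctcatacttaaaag
B2m (chr2:122147437-122147686, plus strand): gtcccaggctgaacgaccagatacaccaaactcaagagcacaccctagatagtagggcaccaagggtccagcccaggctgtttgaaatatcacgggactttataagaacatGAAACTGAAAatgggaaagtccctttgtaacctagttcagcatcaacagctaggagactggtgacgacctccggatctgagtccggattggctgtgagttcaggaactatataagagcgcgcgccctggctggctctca

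Gbp2 and Gbp5 have the core on the other strand, so that it reads TTTC, any 2 bases, TTTC; in Isg15 overlapping cores run together. At least 1 core on either strand was found for 11 of the 19 genes of the list that had a promoter in the table (57.9%): B2m, Bst2, Gbp2, Gbp3, Gbp5, Gbp7, Ifit1, Ifit3, Igtp, Irgm1 and Isg15. It was found in 2.98% of all 32851 promoter windows of the same length and for 3.46% of 27025 genes. A match describes the letters of the window and is no evidence that a factor binds it.

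The guanylate-binding protein genes are a multigene family of GTPases of cell-autonomous immunity whose members may share reads, and Gbp2, Gbp3 and Gbp5 had low single-positive shares. Gbp2 was at 29.1 FPKM in double-negative, 7.15 in Zscan4c-negative, 4.39 in single-positive, 0.891 in double-positive and 1.09 in Zscan4c-positive cells (difference 1.89). Gbp5 was at 15.6, 4.44, 1.29, 0.341 and 0.890 FPKM (1.61), and Gbp3 at 8.46, 1.27, 1.36, 0.312 and 0.291 FPKM (2.06). In Gbp2 and Gbp5 the Zscan4c-negative level was the second highest, above the single-positive one. Gbp7 was at 6.10, 0.474, 2.86, 0.160 and 0.112 FPKM (2.27), with a larger single-positive share of 0.469. Gbp3, Gbp5 and Gbp7 are listed at the same coordinates, so their separate levels are less certain. Irgm1, an immunity-related GTPase, was at 25.9, 4.30, 10.7, 2.23 and 1.23 FPKM (2.35). Isg15, a ubiquitin-like modifier, was at 8.84, 1.02, 4.88, 0.366 and 0.259 FPKM (2.28).

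Among the genes of MHC class I presentation named here, B2m had a single-positive share of 0.693, near the set-apart median of 0.695. The shares of Psmb9 (0.561), H2-D1 (0.56), Psmb8 (0.516) and H2-K1 (0.473) were lower. B2m, the invariant chain of MHC class I, was at 240 FPKM in double-negative, 25.4 in Zscan4c-negative, 166 in single-positive, 26.1 in double-positive and 27.0 in Zscan4c-positive cells (3.19). The immunoproteasome subunit genes Psmb8 and Psmb9 were at 69.1 against 5.03 FPKM (3.54) and 24.0 against 2.71 FPKM (2.75). The MHC heavy chain genes H2-D1 and H2-K1, members of a family with near-identical copies and therefore uncertain, were at 32.9 against 8.21 and 38.1 against 12.3 FPKM. Among the factors, Irf1 was at 84.2, 30.4, 35.4, 25.2 and 14.1 FPKM (1.44), and Irf9 at 8.70 against 6.62 FPKM (0.35), within 2-fold. Bst2 (tetherin), which holds budding virions at the membrane, was the member with the highest double-negative level, at 255 FPKM, with 89.3 in single-positive, 72.1 in double-positive, 114 in Zscan4c-negative and 69.8 in Zscan4c-positive cells (1.15). The median single-positive share of the 19 genes was 0.532, against 0.695 over the set-apart rows. The fibroblast and T-lineage markers differed in the same direction, with the summed levels given above, and their part in this result was not tested.

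**Figure D4:**
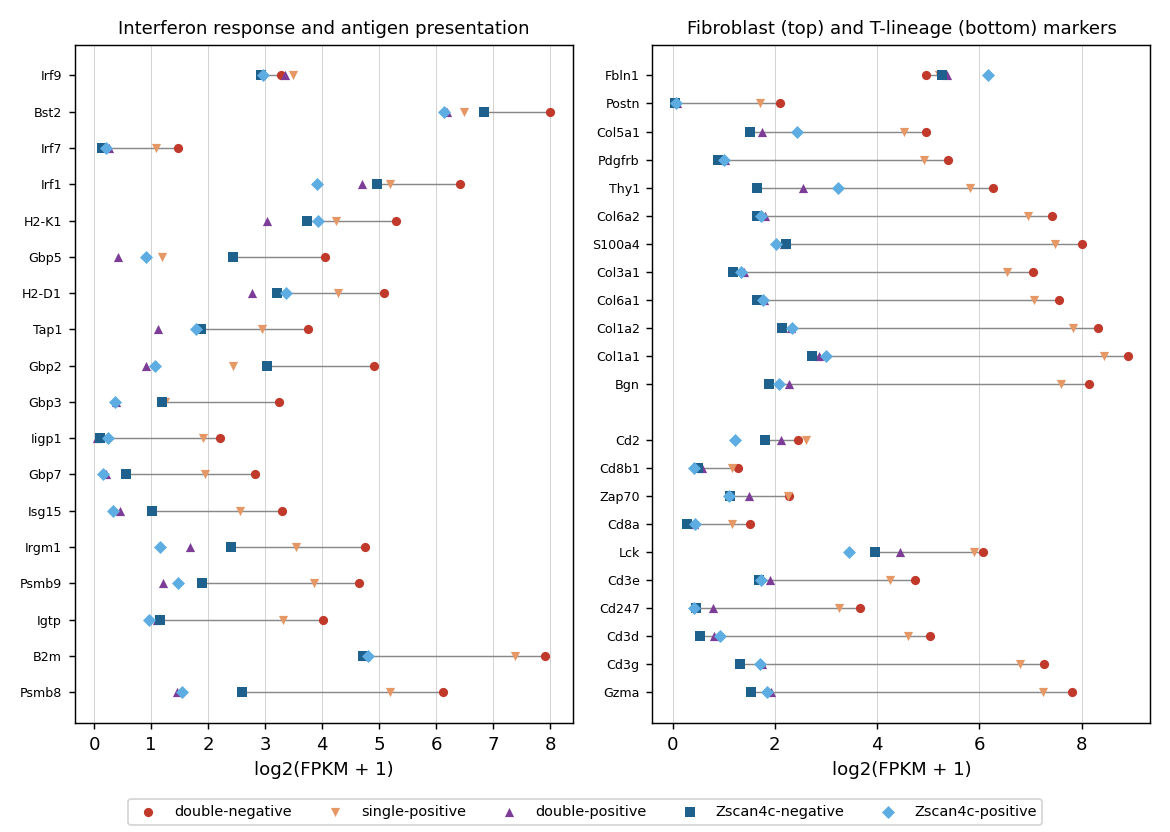
Points give log2(FPKM + 1) in the 5 fractions for 18 of the 19 compared interferon and antigen presentation genes (left) and for the fibroblast and T-lineage markers (right). In most fibroblast markers and T-lineage markers such as Cd3g the single-positive point lies just left of the double-negative point, whereas in Gbp2 and Gbp5 it lies left of the Zscan4c-negative point.

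Among signalling genes, few members of each list passed 2-fold. Of 10 LIF and STAT3 genes, with a median of -0.55, none was higher and 3 were lower, among them Icam1 (27.9 against 59.8 FPKM, -1.07) and Bcl3 (26.7 against 54.9 FPKM, -1.01). The kinase gene Jak1 differed the other way, at 22.8 against 11.3 FPKM (0.95). With a pseudocount of 5 FPKM both Icam1 (-0.98) and Bcl3 (-0.92) missed 2-fold, which left 1 lower gene, and Bcl3 also missed it when the columns were scaled to equal totals (-0.95) or by the median ratio (-0.99).

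Of 8 FGF ligands and receptors, Fgf5 was higher and Fgfr4 lower. Fgf4, the ligand ES cells make for themselves, was at 33.4 FPKM in double-negative, 66.1 in Zscan4c-negative, 62.3 in single-positive, 91.8 in double-positive and 81.5 in Zscan4c-positive cells (-0.97). Of 12 FGF and ERK response genes, 2 were higher and 2 lower, with a median of -0.25. The ETS factor gene Etv4 was at 7.87, 30.2, 8.38, 14.1 and 18.2 FPKM (-1.81) and the feedback inhibitor gene Spry4 at 25.4, 62.5, 28.9, 33.5 and 56.7 FPKM (-1.27). Both were lower in all 3 fractions of the knock-in line than in the transgene line. Fos (34.4 against 6.16 FPKM), which was set apart, and Ier3 (12.6 against 5.44 FPKM) were the higher ones.

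Of 11 NODAL pathway genes, 1 was lower, the proprotein convertase gene Pcsk6 (3.81 against 9.29 FPKM), and none was higher. The antagonist gene Lefty1 was at 273, 171, 129, 147 and 111 FPKM (0.67). It was highest in double-negative cells with the Zscan4c-negative level next, as in Pou3f1 and Pim2. Of 10 WNT pathway genes, Tcf7, an activating TCF, was higher at 314, 124, 260, 146 and 106 FPKM (1.33), and 2 targets were lower: Notum, which inactivates WNT ligands, at 9.34, 31.9, 43.8, 49.7 and 31.8 FPKM (-1.67), and the transcription factor gene Sp5 at 2.45 against 7.58 FPKM (-1.32). Of 10 BMP and ID genes, the HLH inhibitor gene Id3 was higher at 104, 32.4, 81.1, 29.9 and 73.0 FPKM (1.65) and Bmp4 lower at 7.21, 24.5, 23.7, 36.2 and 21.7 FPKM (-1.63).

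Of 18 imprinted genes, 3 were higher and 1 lower, with a median of 0.05. H19 and Igf2, neighbours that share an imprinting control region, were both set apart; Igf2 was at 15.9, 1.90, 9.89, 1.06 and 2.07 FPKM. Sgce was higher at 8.07 against 2.49 FPKM, and Mest was the lower one. The maternally expressed noncoding RNAs Rian and Meg3 were at 208, 196, 100, 90.7 and 75.5 FPKM and at 137, 155, 79.1, 85.7 and 53.7 FPKM. Both were high in the 2 compared fractions and lower in the other 3. Of 12 DNA methylation genes, Tet3 was higher (5.65 against 1.68 FPKM) and Zfp57, which protects imprints, lower (59.6, 159, 112, 159 and 141 FPKM, -1.40).

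Of the 2-cell-like list 1 row reached 1 FPKM in either compared fraction, a row of Sp110 at 6.28 against 0.228 FPKM, which was set apart. Of 12 germline genes, the X-linked homeobox genes Rhox6 (1.15 against 7.16 FPKM, -1.93) and Rhox9 (1.75 against 9.34 FPKM, -1.91) were lower and none was higher. Of 7 primitive endoderm genes, 5 were higher, 4 of them set apart: Col4a1, Col4a2, Pdgfra and Dab2. The fifth was the matrix gene Sparc, at 178 against 50 FPKM. The endoderm factors Gata4, Gata6, Sox17 and Sox7 were below 1 FPKM in both fractions and were not compared; Gata6 was at 0.834 against 0.251 FPKM and Gata4 at 0.187 against 0.421 FPKM. Lama1, a laminin chain of the basement membrane, was lower at 2.21, 7.99, 7.07, 11.6 and 10.4 FPKM (-1.48).

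Of 8 trophectoderm genes, Gata3 (set apart) and Krt19 were higher, and Tfap2c and Tead4 (1.25 against 4.43 FPKM) lower. Krt19 was at 5.78, 1.93, 4.36, 6.24 and 1.54 FPKM, high in all 3 fractions of the knock-in line. Of 6 neuroectoderm genes, Pax6 was lower at 5.16, 15, 11.2, 14.4 and 12.1 FPKM (-1.38) and none was higher. Of 2 compared streak and mesoderm genes, Snai1 was higher, while the streak factors T and Mixl1 were below 1 FPKM in both fractions. Of 16 adhesion and cytoskeleton genes, Cd44 (set apart) and the intermediate filament gene Vim (432, 110, 337, 110 and 127 FPKM, 1.96) were higher, and the connexin gene Gjb5 (1.79, 13.8, 17.5, 30.5 and 12.6 FPKM, -2.40) was among the lower ones.

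Housekeeping programmes differed little. None of 12 glycolysis and hypoxia genes, 11 mitotic genes and 12 replication genes passed 2-fold, with medians of -0.16, -0.27 and -0.23. Of 12 threonine, serine and one-carbon enzymes, Tdh, the threonine dehydrogenase that mouse ES cells depend on, was lower at 137, 308, 287, 352 and 292 FPKM (-1.17). Of 14 p53 response genes, Fas was higher, at 2.87 against 0.161 FPKM, and was set apart. Of 11 immediate early and heat shock genes, Fos, Fosb and Jun were higher; Jun was at 24.3, 4.64, 13.3, 2.19 and 7.38 FPKM (2.17).

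**Figure D5:**
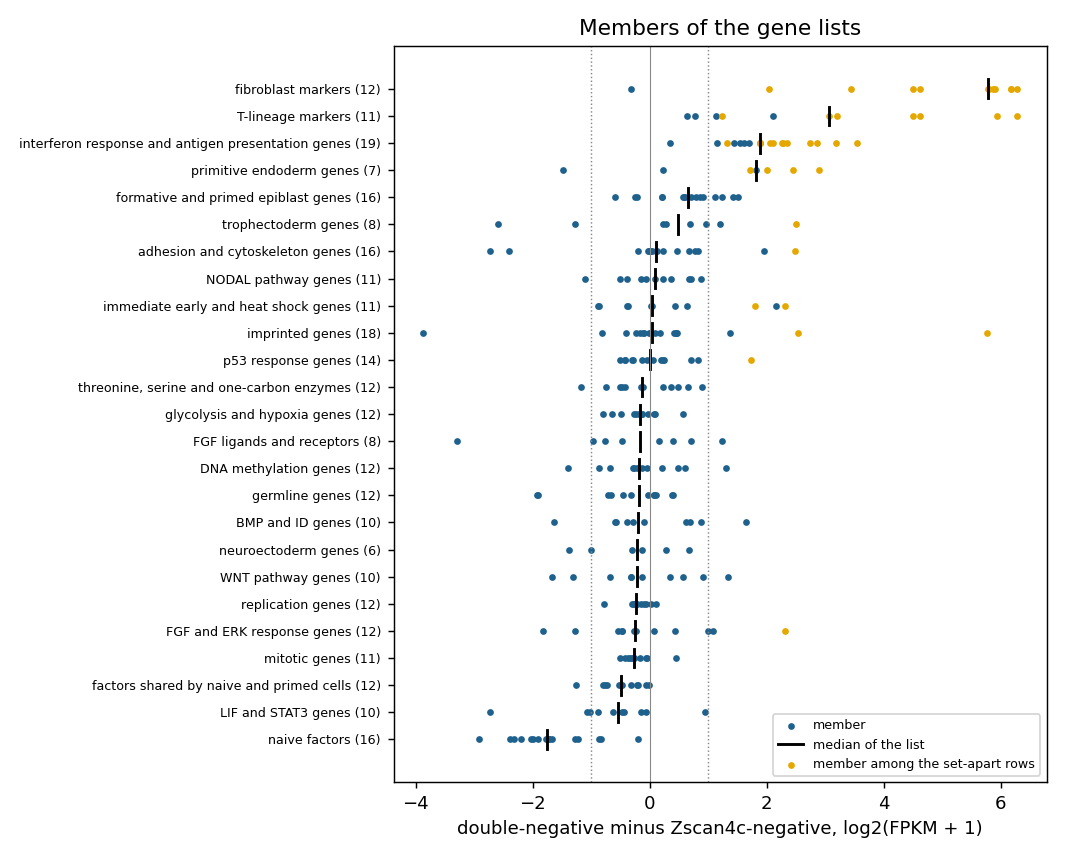
Each point is a compared member of a gene list (number of members in brackets), placed by its double-negative minus Zscan4c-negative difference of log2(FPKM + 1); the bar is the median of the list and yellow points are set-apart rows. Fibroblast markers lie highest (median 5.79) and naive factors lowest (median -1.74), while the medians of the glycolysis, mitotic and replication lists lie between -0.27 and -0.16.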

How the data were processed

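NEBNext Ultra libraries were made from RNA purified by Qiagen RNeasy, per the labels' protocols, and run on a HiSeq2500, per the series' design text. The submitters' processing notes name bcl2fastq 1.8.4, TopHat2 2.0.14, Cufflinks, Cuffdiff 2.2.1 and mm10; which annotation and library normalization were used is not stated there. The authors deposited 1 table of FPKM values, with the 2 libraries of a fraction merged into 1 value. FPKM keeps no depth: among 1986 rows below 0.15 FPKM in both columns, the fullest bin of their ratio held 2.62%, so no common step gave whole reads, and depth is unknown. Genes with near-identical copies can lose or share fragments, and very short RNAs take extreme values.

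No test between the 10 libraries could be run on merged values. Differences of log2(FPKM + 1) and a 2-fold size rule were used instead, with Python 3.11.15, pandas 2.3.3 and numpy 2.4.6, and the steps were checked on simulated data. Rows were matched to RefSeq symbols or synonyms (12555 of 13053). Coordinates are those of the deposited table, written from 1. Named were the 12 largest differences each way among coding or long noncoding genes at 5 FPKM or more, the 12 set-apart rows with the highest double-negative levels, up to 6 members past 2-fold per list, and the sorted genes and markers; other list members are examples, and some genes picked by this rule are left out of the text. The members, the rule and the 32 lists (384 genes) were chosen with earlier results of these data known. Promoters came from a RefSeq table (GRCm38.p6). Alternatives covered the pseudocount, the filter, scaling, row handling and the set-apart share.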

Additional observations from a re-analysis of the deposited data

How the results depend on the processing

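No list median and no named gene changed sign under the alternatives run for it, whereas the median difference over all rows, 0.03, was -0.04 with a filter of 5 FPKM. With a pseudocount of 0.1 FPKM, 391 rows were lower and 1072 higher outside the set-apart rows; with 5 FPKM, 1434 higher rows became 523, 124 were lower and 174 higher outside the set-apart rows. Asking for 5 FPKM in either fraction left 844 higher and 398 set-apart rows. A set-apart share of 0.1 gave 500 set-apart and 942 other higher rows, and a share of 0.5 gave 1571 and 160. The counts stayed within 1.5 times with no filter, equal FPKM totals (1536 higher, 219 lower), median-ratio scaling (1466 and 230), summed rows of a symbol (1430 and 240) and coding or long noncoding symbols (1336 and 206). The added count of 82 rows became 163 and 27 with the pseudocounts of 0.1 and 5. Of 122 named genes, 28 missed 2-fold with a pseudocount of 5: Bcl3, Capn6, Cd79b, Cd8a, Dab2, Ebf1, Fas, Fcer1g, Fgf5, Fosb, Hbb-b2, Icam1, Ier3, Iigp1, Irf7, Krt19, Lama1, Pax6, Pcsk6, Pdgfra, Postn, Rhox6, Sgce, Sp5, Spic, Tead4, Tet3 and Zap70. Higher rows made up 80.6% to 87.5% of calls, and the median difference ran up to 0.09, with equal totals. No replicate could be left out. No paired analysis was possible because the table holds 1 merged value per fraction. Values near 1 FPKM are the least certain, since depth is unknown.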

Other observations

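A group of genes was alike in the 2 compared fractions and lower in double-positive cells. By a rule set after values had been seen, 41 coding or long noncoding genes differed by at most 0.5 between double-negative and Zscan4c-negative cells and were at least 2-fold lower in double-positive cells, and 40 were at least 2-fold higher there. Car2, a cytosolic carbonic anhydrase, was at 108 FPKM in double-negative, 86.9 in Zscan4c-negative, 28.5 in single-positive, 25.7 in double-positive and 35.2 in Zscan4c-positive cells. The imprinted genes Peg10 and Cdkn1c, the latter an inhibitor of cyclin-dependent kinases, were at 98.5, 73.1, 25.8, 23.2 and 37.6 FPKM and at 72.5, 52.4, 19.3, 24.7 and 28.5 FPKM. Cntfr, a receptor of the LIF cytokine family, was at 12.4, 14.4, 2.40, 2.70 and 6.10 FPKM, and Prtg (protogenin) at 13.9, 11.1, 3.58, 3.24 and 3.05 FPKM. In each of these 5 genes the double-negative and Zscan4c-negative levels were the 2 highest.

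Some small RNA rows were high in some fractions and listed at 0 in others. Mir6992 was listed at 257 FPKM in Zscan4c-negative cells, at 114 in double-positive cells and at 0 elsewhere, and Mir6363 at 173 FPKM in single-positive, 24.9 in double-negative and 16.1 in double-positive cells and at 0 in both Zscan4c fractions. Among rows outside the profile with at least 5 FPKM in both compared fractions, the median difference per chromosome ran from -0.12 on chromosome 17 (429 rows) to -0.02 on the X chromosome (265 rows).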
